A study of Mus musculus with 6 samples.

Results

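Secretory and membrane proteins enter the endoplasmic reticulum (ER) through the Sec61 channel and are processed there by 3 further protein complexes, and 10 subunits of these 4 complexes are described here. They were Sec61a1, Sec61b and Sec61g of the channel, Stt3a, Rpn1, Dad1, Tmem258 and Ostc of the oligosaccharyltransferase, Ssr4 of the translocon-associated protein complex, and Spcs1 of the signal peptidase. The genes were picked by symbol, with their fold changes between the groups already known, as rows of a table of 55401 Ensembl gene IDs. All 10 were among the 19833 genes with enough counts to be tested. Because that knowledge chose them, their own differences between the groups are a description, with no p-value given for a member, and the count of members past a threshold supports nothing. Tests are given for the 17 other subunits of the 4 complexes, called companions here, which are those left once the members had been picked.

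RNA sequencing of polyadenylated RNA from mouse aorta gave read counts for 3 samples of ApoE-/- mice and 3 samples of IL16-/-ApoE-/- mice, called double mutants here. By their labels both groups lack apolipoprotein E, the ligand for clearance of remnant lipoproteins, and the double mutants also lack interleukin-16, a cytokine that binds CD4; RNA of both genes was still counted in all 6 libraries. The high-fat feeding began at 8 weeks of age and lasted 24 weeks in both groups, and the comparison asked what lacking interleukin-16 changes in aortic expression after such feeding. The sources used here do not give the strain background, the sex, the deleted parts of Il16 and Apoe, or whether each numbered sample was a separate animal. The p-values therefore measure the spread between samples only, which may be technical.

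In translation at the ER, the ribosome docks on the Sec61 channel, and the growing chain passes through its pore into the lumen or sideways into the membrane. The oligosaccharyltransferase moves a preassembled glycan from a lipid carrier to asparagines of the chain, the translocon-associated protein complex sits beside the channel and assists the entry of some chains, and the signal peptidase cuts off the signal peptide. In the channel and the oligosaccharyltransferase, large subunits that hold the pore or the catalytic site work with very small membrane proteins. In the vessel wall this machinery handles the collagens, proteoglycans and receptors made by smooth muscle cells and fibroblasts.

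The small subunits that differed most between the groups have very short coding sequences. These are printed here, from GENCODE M21 on mouse assembly GRCm38, so that their size can be seen beside the values that follow. Sec61g encodes the gamma subunit of the channel in 68 residues, Tmem258 encodes an oligosaccharyltransferase subunit in 79 residues, and the companion Ost4 encodes another in 37 residues. Capitals mark the start and stop codons.
Sec61g: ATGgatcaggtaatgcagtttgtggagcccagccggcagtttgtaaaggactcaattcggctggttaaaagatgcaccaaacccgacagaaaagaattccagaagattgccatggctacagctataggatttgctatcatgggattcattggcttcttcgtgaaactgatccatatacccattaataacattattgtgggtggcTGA
Tmem258: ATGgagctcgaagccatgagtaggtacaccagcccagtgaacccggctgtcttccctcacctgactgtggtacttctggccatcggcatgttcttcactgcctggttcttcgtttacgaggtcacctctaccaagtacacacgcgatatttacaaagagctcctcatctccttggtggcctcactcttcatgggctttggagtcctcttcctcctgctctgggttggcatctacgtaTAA
Ost4: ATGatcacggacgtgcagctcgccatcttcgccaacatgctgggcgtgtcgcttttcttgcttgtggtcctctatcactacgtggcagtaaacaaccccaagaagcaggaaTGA
The catalytic subunit Stt3a has 705 residues, Rpn1 has 608 and the pore subunit Sec61a1 has 476.

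Among the 10 members, the small subunits were higher in the double mutants and the 3 large ones were level or slightly lower. Sec61g was 5.59-fold higher, Tmem258 4.43-fold, Dad1 2.14-fold and Spcs1 2.01-fold, while Sec61b, Ssr4 and Ostc differed by 1.17- to 1.44-fold. Sec61a1, Stt3a and Rpn1 were at 0.835, 0.846 and 0.903 times their ApoE-/- level. The members' median log2 fold change (double mutant over ApoE-/-) was 0.44, and that of all tested genes was -0.05. With edgeR's quasi-likelihood test and a Benjamini-Hochberg adjusted p under 0.05, 3 of the 10 members were called higher (Sec61g, Tmem258 and Spcs1) and none lower. Of all tested genes, 1.14% were called higher and 0.0605% lower, and nothing is read from the members' count, since this contrast chose them. The groups did not overlap for 6 members that were higher and 1 that was lower, beside 14.9% and 11.5% of all tested genes.

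Sec61g (ENSMUSG00000078974, GRCm38 chr11:16500530-16508484, minus strand), whose protein is a single-pass helix that clamps the sides of the pore together, was at 7.82, 5.61 and 5.96 CPM (counts relative to the TMM-scaled library total) in aorta samples 1, 2 and 3 of ApoE-/- mice, against 34.6, 36.8 and 37.1 CPM in those of double mutants. Each double mutant value exceeded each ApoE-/- value, with means of 36.15 ± 1.38 and 6.46 ± 1.19 CPM (SD, n = 3). The log2 fold change was 2.48 (SE 0.19). Sec61b (ENSMUSG00000053317, chr4:47474658-47483242, plus strand), the beta subunit, a tail-anchored protein at the edge of the channel, was at 26.1, 17.4 and 21.4 CPM in ApoE-/- aortas, against 30.7, 31.6 and 30.9 CPM in double mutant aortas. The groups did not overlap, but the gap was small, with a log2 fold change of 0.52 (SE 0.18).

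Sec61a1 (ENSMUSG00000030082, chr6:88503579-88518905, minus strand), which forms the pore itself, was at 130, 151 and 149 CPM in ApoE-/- aortas, against 118, 121 and 120 CPM in double mutant aortas. All 3 double mutant libraries were lower, by 0.26 on the log2 scale (SE 0.15). The subunits of the channel thus differed in direction. Their ratio within a library needs no scaling between libraries and was taken over TPM, which are counts divided by transcript length and by the library's sum of such values. The TPM of Sec61g divided by that of Sec61a1 was 0.254, 0.156 and 0.168 in the ApoE-/- libraries and 1.24, 1.28 and 1.30 in the double mutants, which is 6.60 times higher in the mean. The ratio of Sec61b to Sec61a1 was 1.13, 0.648 and 0.806 in the ApoE-/- libraries and 1.47, 1.47 and 1.45 in the double mutants.

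**Figure D1:**
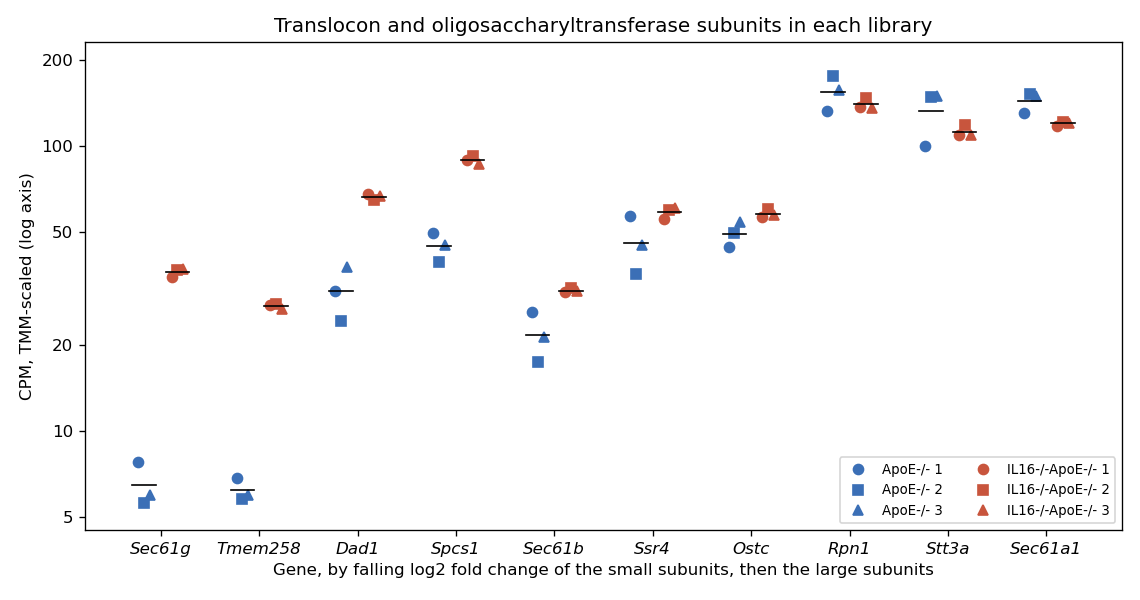
CPM of the 10 members (log axis), 1 point for each library, with ApoE-/- and double mutant libraries in different colours and a bar at each group's mean. Sec61g and Tmem258 sit at no more than 7.82 CPM in each ApoE-/- library and at no less than 26.7 CPM in each double mutant library, while Ssr4, Rpn1 and Stt3a overlap between the groups.

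In the oligosaccharyltransferase, Tmem258 (ENSMUSG00000036372, chr19:10204014-10207824, plus strand), a small subunit needed for full activity, was at 6.86, 5.77 and 5.96 CPM in ApoE-/- aortas, against 27.7, 27.9 and 26.7 CPM in double mutant aortas. The groups stood far apart, with means of 6.20 ± 0.584 and 27.4 ± 0.657 CPM (SD, n = 3) and a log2 fold change of 2.15 (SE 0.16). Dad1 (ENSMUSG00000022174, chr14:54235479-54254104, minus strand), a small subunit named for its defence against apoptotic death, was at 31.0, 24.4 and 37.6 CPM in ApoE-/- aortas, against 67.8, 64.5 and 66.4 CPM in double mutant aortas. Again no library overlapped, and the log2 fold change was 1.10 (SE 0.19). Ostc (ENSMUSG00000041084, chr3:130695912-130709444, minus strand), which ties the Stt3a form of the enzyme to the channel, was at 44.0, 49.6 and 54.0 CPM in ApoE-/- aortas, against 56.1, 59.9 and 57.0 CPM in double mutant aortas. Its groups lay close together without overlap, with a log2 fold change of 0.23 (SE 0.14).

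The large members of the enzyme did not share that direction. Stt3a (ENSMUSG00000032116, chr9:36729344-36767679, minus strand), the catalytic subunit, was at 99.96, 148 and 149 CPM in ApoE-/- aortas, against 109, 118 and 109 CPM in double mutant aortas. Rpn1 (ENSMUSG00000030062, chr6:88084482-88105304, plus strand), or ribophorin I, was at 133, 175 and 156 CPM in ApoE-/- aortas, against 136, 147 and 135 CPM in double mutant aortas. For both genes ApoE-/- 1 was the lowest library of all and the groups overlapped, with log2 fold changes of -0.24 (SE 0.20) for Stt3a and -0.15 (SE 0.18) for Rpn1. The TPM ratio of Tmem258 to Stt3a was 0.401, 0.227 and 0.234 in the ApoE-/- libraries and 1.49, 1.38 and 1.43 in the double mutants, and that of Dad1 to Stt3a was 0.437, 0.232 and 0.355 against 0.878, 0.770 and 0.859. The ratio of Rpn1 to Stt3a, both large, stayed between 0.890 and 1.12 in all 6 libraries.

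Spcs1 (ENSMUSG00000021917, chr14:30999826-31001672, minus strand), a non-catalytic subunit of the signal peptidase, was at 49.2, 39.3 and 44.9 CPM in ApoE-/- aortas, against 89.1, 92.2 and 86.5 CPM in double mutant aortas. No library overlapped, and the double mutants were 2.01-fold higher. Its TPM ratio to Spcs3, another non-catalytic subunit with a longer transcript, was 2.38, 1.76 and 1.94 in the ApoE-/- libraries and 4.24, 3.92 and 4.43 in the double mutants. Ssr4 (ENSMUSG00000002014, chrX:73787028-73790830, plus strand), the delta subunit of the translocon-associated protein complex, was at 56.6, 35.5 and 44.7 CPM in ApoE-/- aortas, against 55.4, 59.7 and 60.3 CPM in double mutant aortas. ApoE-/- 1 fell among the double mutants, and the log2 fold change was 0.36 (SE 0.19). The TPM ratio of Ssr4 to Ssr1, the alpha subunit, also overlapped, at 1.09, 0.520 and 0.543 against 0.867, 0.892 and 0.980.

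**Figure D2:**
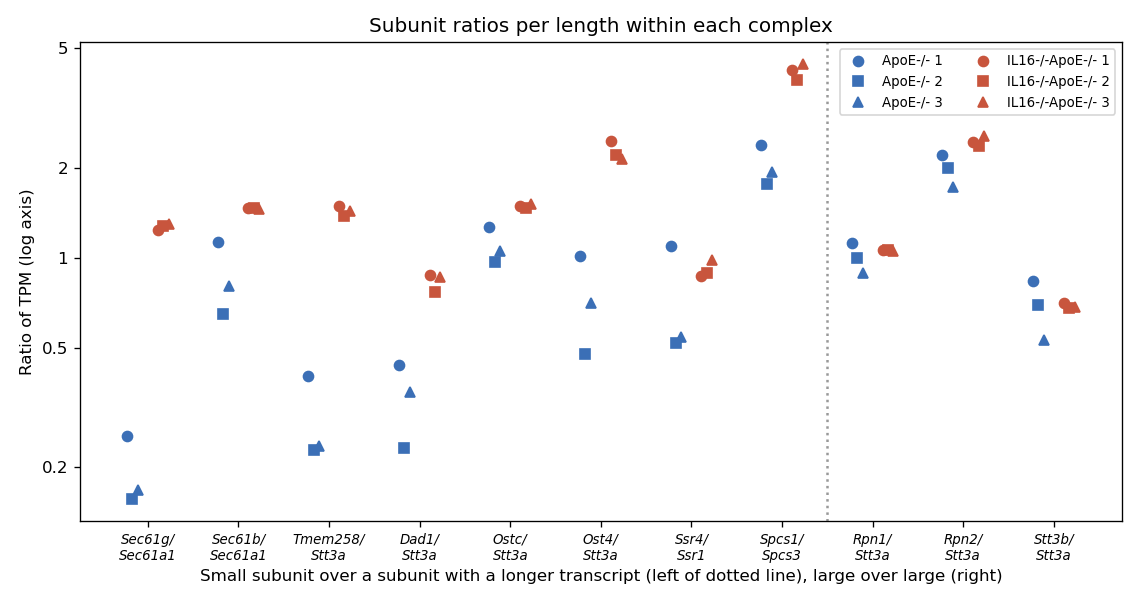
TPM of a subunit divided by TPM of another subunit of the same complex (log axis), 1 point for each library. The ratios of Sec61g to Sec61a1 and of Tmem258 to Stt3a separate the groups, while those of Rpn1 and Stt3b to Stt3a overlap and that of Rpn2 to Stt3a differs by 1.24 times in the mean.

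Per length, the order of the members' levels differed between the groups. In the ApoE-/- libraries Ssr4 was highest at 98.9 ± 10.03 TPM (SD, n = 3), and Spcs1, Ostc, Sec61a1, Stt3a, Rpn1 and Sec61b followed between 80.4 and 65.3 TPM without separation between neighbours. Dad1 at 24.2 ± 3.22 TPM and Tmem258 at 20.3 ± 2.18 TPM overlapped, and Sec61g was lowest at 14.7 ± 1.63 TPM. In the double mutants Spcs1 led at 143.0 ± 5.87 TPM and Ssr4 came next at 114 ± 6.13 TPM. Sec61b, Ostc and Tmem258 lay between 83.7 and 79.2 TPM without separation, followed by Sec61g at 72.9 ± 3.40 TPM. Rpn1, Sec61a1 and Stt3a lay between 58.5 and 55.3 TPM without separation, and Dad1 was lowest at 46.1 ± 0.642 TPM. Tmem258 and Sec61g were thus below Stt3a and Sec61a1 in the ApoE-/- libraries and above them in the double mutants. The TPM of Dad1 rests on the median of its 878- and 3491-base transcripts and would be higher if the shorter one made most of its RNA. That of Stt3a rests on transcripts of 5867 and 285 bases, and would be lower if the longer one made most of its RNA. The ranks of Dad1 and Stt3a therefore depend on these lengths. The transcripts of Sec61g span 450 to 1862 bases and those of Ssr1 1610 to 9333 bases. The level of a TPM ratio depends on the lengths used, and its fold between the groups does not.

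Transcript length, taken as the median over a gene's basic GENCODE transcripts, was compared with the fold changes, as the members fall into short and long genes. With a limit of 1500 bases, 6 members were short (Sec61b, Sec61g, Tmem258, Ostc, Ssr4 and Spcs1) with a median log2 fold change of 0.76, and 4 were long (Sec61a1, Dad1, Rpn1 and Stt3a) with a median of -0.19. Dad1 counts as long only through its 3491-base transcript, and its coding sequence has 113 codons. When genes were split by a coding length of 600 bases, a split added after seeing the data, Dad1 moved to the short members, whose median became 1.00, beside -0.24 for the 3 long ones. The short companions had a median log2 fold change of 0.40 (6 genes) and the long ones of -0.05 (11 genes).

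The same direction was present over all genes. Tested genes with transcripts under 1500 bases had a median log2 fold change of 0.26 (5642 genes) and the longer ones of -0.12 (14163 genes). Of the short genes, 2.41% were called higher and 28.2% were higher without overlap of the groups, against 0.635% and 9.57% of the long genes. The median fell from 1.14 for transcripts under 500 bases through 0.48 for 500 to 750 bases, 0.24 for 750 to 1000 bases and -0.09 for 2000 to 3000 bases to -0.25 for those of 5000 bases or more. Across 19805 genes, which share their libraries and are not independent replicates, Spearman's rho of log2 fold change with length was -0.269. Short genes were not low in each ApoE-/- library alike: the short-minus-long difference over all genes (medians of log2 deviations) was 0.02, -0.46 and -0.24 in ApoE-/- 1, 2 and 3 and 0.26, 0.26 and 0.22 in the double mutants. For the members it was -0.10, -0.85 and -0.52 in the ApoE-/- libraries and 0.50, 0.44 and 0.48 in the double mutants, so that ApoE-/- 1 was nearest to the double mutants and ApoE-/- 2 farthest in both sets.

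**Figure D3:**
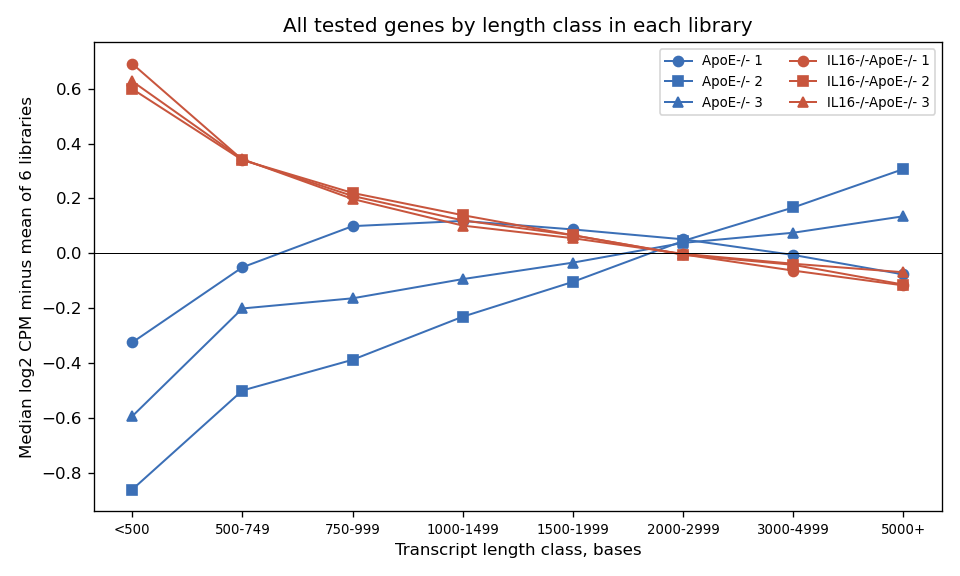
Median log2 CPM minus the mean of the 6 libraries, over all tested genes of each transcript length class, with 1 line for each library. Under 500 bases the double mutant libraries are at 0.60 to 0.69 and ApoE-/- 2 is lowest at -0.86. At 5000 bases or more ApoE-/- 2 is highest at 0.31.

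Against genes of like length, the members fell into separate sorts. Sec61g lay 2.24 above the median log2 fold change of its length class and above 95.7% of its 1218 genes, and Tmem258 lay 1.67 above its own and above 92.4% of 1057 genes. Dad1 lay 1.19 above, at the class of 2000 to 3000 bases, and Spcs1 0.76 above, higher than 79.9% of its class. The class of Dad1 comes from the median of its 878- and 3491-base transcripts. The class of 750 to 1000 bases, which would hold the shorter one, had a median of 0.245. Sec61b, Ssr4 and Ostc lay 0.04, 0.11 and 0.11 above their class medians, and Sec61a1, Stt3a and Rpn1 lay -0.10, -0.08 and 0.01 from theirs. When each library's trend of log2 CPM on length was removed within edgeR, the log2 fold changes became 1.97 for Sec61g, 1.25 for Tmem258, 1.10 for Dad1 and 0.66 for Spcs1. Dad1 was again placed by its median length. The short-minus-long difference of the medians went from 0.96 to 0.40 for the members and from 0.45 to -0.004 for the companions. Under the same removal Sec61b (-0.29), Ssr4 (-0.11) and Ostc (-0.07) turned below 0. Length moved with these results in all genes, and its part in them beyond these values was not tested.

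**Figure D4:**
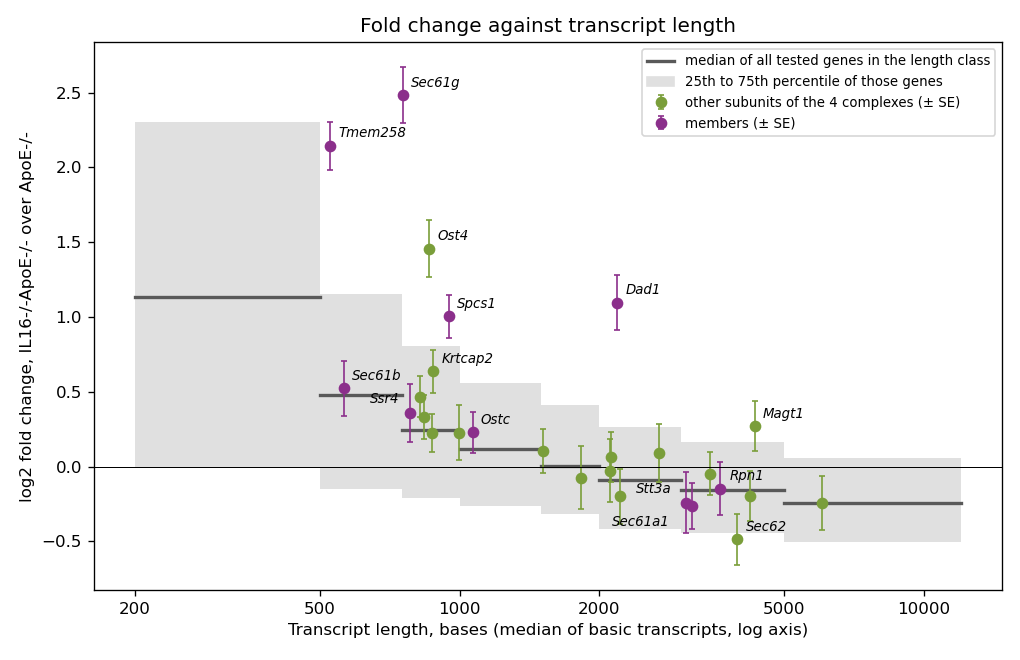
Log2 fold change (± SE) of the members and companions against transcript length (log axis), over the median and the 25th to 75th percentile of all tested genes in each length class, with the outer classes drawn to the plotted limits. Sec61g, Tmem258, Ost4, Spcs1 and Dad1, and the long companion Magt1, lie above the 75th percentile of their classes, Sec62 lies below the 25th, and the large subunits Sec61a1, Stt3a and Rpn1 lie near their class medians.

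Of the 17 companions, 1 rose (Ost4) and none fell at an adjusted p under 0.05 in edgeR, beside 1.14% and 0.0605% of all tested genes. At an unadjusted p under 0.05, 3 were higher (Ost4, Krtcap2 and Sec11c) and 1 lower (Sec62). Of all 19833 tested genes, 1760 were higher and 1394 lower at that threshold. DESeq2, and limma-voom with sample weights, each called Ost4, Krtcap2 and Sec11c higher and Sec62 lower, and limma-voom called Ost4 alone. Without ApoE-/- 1, edgeR called those 4 genes and also Sec63, as lower. Over all genes, DESeq2 called 1235 higher and 462 lower, limma-voom with sample weights 1863 and 1488, and edgeR in that last setting 2651 and 2580. Ost4 (ENSMUSG00000038803, chr5:30905885-30907788, minus strand), the smallest oligosaccharyltransferase subunit, was at 28.1, 19.7 and 29.4 CPM in ApoE-/- aortas, against 74.4, 72.9 and 65.0 CPM in double mutant aortas. All 3 double mutants were above all ApoE-/- libraries, with means of 70.8 ± 5.06 and 25.8 ± 5.27 CPM (SD, n = 3), a log2 fold change of 1.46 (SE 0.19) and an edgeR adjusted p of 0.0279. The call was lost without double mutant 1, 2 or 3 (adjusted p = 0.194, 0.178 and 0.196), and it remained with the length trend removed (1.05, SE 0.15, adjusted p = 0.0411).

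The other companions of the oligosaccharyltransferase were closer between the groups. Krtcap2, an accessory subunit of the Stt3a form, ranged from 19.5 to 21.9 CPM in the ApoE-/- libraries and from 29.9 to 35.0 CPM in double mutant aortas (log2 fold change 0.64, SE 0.14, adjusted p = 0.109), and it was singled out after its values were seen. The large subunits Rpn2, Ddost and Stt3b, and the oxidoreductase subunits Tusc3 and Magt1, had log2 fold changes between -0.19 and 0.27, and the groups overlapped for all 5. In the TPM ratio to Stt3a, Ost4 was at 1.01, 0.476 and 0.708 in the ApoE-/- libraries and at 2.45, 2.21 and 2.14 in the double mutants. The ratio of Stt3b, the other catalytic subunit, to Stt3a was 0.833, 0.694 and 0.529 against 0.708, 0.678 and 0.683, so the balance of both catalytic forms overlapped between the groups. The ratio of Rpn2 to Stt3a did not overlap, at 2.20, 1.99 and 1.72 against 2.44, 2.36 and 2.54, nor did that of Ddost to Stt3a, at 1.65, 1.45 and 1.22 against 1.78, 1.73 and 1.74.

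In the other complexes no companion passed the threshold. Sec62, which helps some chains into the channel after translation, was at 159, 205 and 190 CPM in ApoE-/- aortas, against 132, 132 and 132 CPM in double mutant aortas (log2 fold change -0.49, SE 0.17, adjusted p = 0.254). Its partner Sec63, which recruits the chaperone BiP, had a log2 fold change of -0.24 (SE 0.18, adjusted p = 0.530), with overlapping groups. Of the translocon-associated proteins, Ssr2 had 0.33 (SE 0.15, adjusted p = 0.338) and Ssr3 -0.20 (SE 0.18, adjusted p = 0.613). These differ in transcript length (839.5 and 2213 bases). Their longest annotated coding sequences both have 555 bases, and their principal GENCODE transcripts encode 183 and 185 residues. Of the signal peptidase, the catalytic subunit Sec11c had 0.47 (SE 0.14, adjusted p = 0.179) and the accessory subunit Spcs2 0.23 (SE 0.13, adjusted p = 0.425).

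The steps before, beside and after the channel, outside the 4 complexes, showed no called gene in edgeR. None of 10 genes of signal recognition, docking and the TRAM proteins (Tram1 and Tram2) passed the adjusted threshold. None reached an unadjusted p under 0.05, and the median log2 fold change was -0.09. DESeq2 and limma-voom also called none, and limma-voom with sample weights called Srp14 higher. Without ApoE-/- 1, edgeR called Tram2 lower. Tram2 and the other genes given for alternative settings were named after their values were seen. Srp14, a protein of the signal recognition particle, had a log2 fold change of 0.38 (SE 0.18, adjusted p = 0.364) and Srp72, its largest protein, -0.20 (SE 0.13, adjusted p = 0.481). Of 21 genes of other insertion routes into the ER membrane, with parts of the multipass translocon among them, none passed. At an unadjusted p under 0.05, 1 was higher and 1 lower (median -0.06), beside 1760 and 1394 of all 19833 tested genes. Emc10, of the ER membrane protein complex, was at 109, 132 and 136 CPM in ApoE-/- aortas, against 80.0, 88.1 and 85.96 CPM in double mutant aortas (log2 fold change -0.57, SE 0.16, adjusted p = 0.166), and Asna1, the targeting ATPase of tail-anchored proteins, had 0.44 (SE 0.18, adjusted p = 0.308). For this list DESeq2 called only Emc10, as lower, limma-voom called none, and limma-voom with sample weights called 3 higher (Emc6, Asna1 and Tmem147) and 4 lower (Emc1, Emc8, Emc10 and Nomo1). Without ApoE-/- 1, edgeR called these 7, with Tmco1 also higher and Wrb also lower. That setting called 2651 higher and 2580 lower of 20177 tested genes, and limma-voom with sample weights 1863 and 1488 of 19833.

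Of 19 genes that build the lipid-linked glycan, the donor of the oligosaccharyltransferase, none passed in edgeR (1 higher and none lower at an unadjusted p under 0.05, median 0.17). Of all 19833 tested genes, 1760 were higher and 1394 lower at that unadjusted threshold. Dpm3, a small subunit of dolichol-phosphate mannose synthase, was at 5.45, 1.64 and 3.40 CPM in ApoE-/- aortas, against 16.8, 12.99 and 13.8 CPM in double mutant aortas. The groups did not overlap, with a log2 fold change of 2.05 (SE 0.45, adjusted p = 0.104). Alg5, which makes dolichol-phosphate glucose, had 0.45 (SE 0.21, adjusted p = 0.348). DESeq2 called Dpm3 alone, limma-voom none, and limma-voom with sample weights Dpm3, Alg5 and Mpdu1, all higher. Without ApoE-/- 1, edgeR called these 3 and Dolk, all higher. Of all tested genes, that setting called 2651 higher, limma-voom with sample weights 1863 and DESeq2 1235. Of 24 genes of ER folding and stress, none passed in edgeR, DESeq2 or limma-voom with or without weights (1 higher and none lower at an unadjusted p under 0.05 in edgeR, median 0.13). Manf and Ddit3, both targets of the unfolded protein response, had the smallest p of that list, with 0.38 (SE 0.14, adjusted p = 0.264) and 0.35 (SE 0.16, adjusted p = 0.332). Without ApoE-/- 1, edgeR called 1 gene of the list, Herpud1, higher.

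Genes with the most similar pattern over the 6 libraries were sought among 9911 genes with a mean of at least 10 CPM, by Pearson's r of log2 CPM with the mean standardised profile. For the short members they were Crip1 (r = 0.9989), Rpl27 (0.9981), Tma7 (0.9981), Rpl36al (0.9974) and Mrpl33 (0.9971), whose transcripts have 478 to 757 bases, and 37 genes were above 0.99. For the long members, Dad1 among them, they were Ube2r2 (0.9948), Copa (0.9939), Sfxn3 (0.9927), Sec31a (0.9923) and Sec24d (0.9914), with transcripts of 2105 to 4486.5 bases. These values describe 6 libraries that fall into 2 groups.

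Some counts may hold reads of other loci. Sec61g has 9 copies with at least 90% identity over 150 bases or more among the annotated transcripts of other genes in the count table. The CPM counted on these copies, apart from the gene, summed to 19.6% of the gene's own CPM for ApoE-/- and 19.2% for the double mutants. Most of it lay on Gm10177 (chr9:37252922-37253365), a transcribed processed pseudogene identical to Sec61g over 360 bases, at 1.25, 0.588 and 1.76 CPM in ApoE-/- aortas, against 6.08, 7.87 and 6.70 CPM in double mutant aortas. The fold between the groups was 5.59 for the gene alone and 5.57 with the copies added. Sec61b has 3 such copies, at 1.87% and 0.743% of its own CPM, and its fold was 1.44 alone and 1.42 with them. Tmem258 overlaps Fen1 on the opposite strand by 156 bases and Spcs1 overlaps Glt8d1 by 273 bases. Fen1 was at 13.0, 4.96 and 1.55 CPM in ApoE-/- aortas, against 7.60, 6.53 and 7.31 CPM in double mutant aortas, and Glt8d1 at 31.6, 46.7 and 69.8 against 44.4, 46.9 and 50.9 CPM, so the groups overlapped for both neighbours. Ost4 overlaps Agbl5 by 1081 bases. Agbl5 was at 11.0, 11.4 and 17.8 CPM in ApoE-/- aortas, against 7.93, 8.12 and 10.9 CPM in double mutant aortas. Agbl5 was thus lower without overlap of the groups, by a narrow gap, while Ost4 was higher. Overlaps were measured over whole gene spans, introns included. The library kit marks strand, and the sources used here do not say whether the counting used it.

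Promoters were read from RefSeq on assembly GRCm38.p6 for the 8 members with an entry (9 promoters), to set members that moved apart beside each other. In the 250 bases before the start, on both strands, CCAAT was found in 4 of 9 (Sec61g, Dad1, Rpn1 and Stt3a), against 33.8% of 32851 promoters. The ER stress response element, its second form, and the letters TGACGTG and TATAAA were found in none of the 9, and in 0.113%, 0.0300%, 1.60% and 12.4% of all promoters. Each was searched as exact letters, with any base at the spacer positions of the first 2. Near matches were not counted. A match is a description of letters only. The last 100 bases are printed for Sec61g, which was higher, and Rpn1, which was level, with CCAAT in capitals. The window of Sec61g (chr11:16508485-16508584, minus strand) has 35.0% G and C and its nearest CCAAT lies outside it, 149 bases before the start, and the window of Rpn1 (chr6:88084373-88084472, plus strand) has 59.0%.
Sec61g promoter: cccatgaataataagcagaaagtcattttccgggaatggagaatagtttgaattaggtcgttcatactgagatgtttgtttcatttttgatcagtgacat
Rpn1 promoter: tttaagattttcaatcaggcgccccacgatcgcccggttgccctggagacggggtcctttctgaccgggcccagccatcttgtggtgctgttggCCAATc

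Libraries held 42861980 to 85568269 counts, and all ApoE-/- totals were above all double mutant totals. Il16 was at 28.3, 28.7 and 15.1 CPM in ApoE-/- aortas, against 7.93, 12.1 and 12.2 CPM in double mutant aortas (log2 fold change -1.16, SE 0.32, edgeR adjusted p = 0.163), which is lower without overlap but not past the threshold. Apoe RNA ranged from 20.9 to 45.0 CPM in ApoE-/- aortas and from 137 to 183 CPM in double mutant aortas, and it was called higher there (5.05-fold, log2 fold change 2.34, SE 0.33, edgeR adjusted p = 0.0369). The labels do not say which part of either gene was deleted, so these counts do not settle the genotypes. ApoE-/- 1 stood apart, with Xist at 474 CPM against 0.497 to 6.21 CPM elsewhere and Ddx3y at 0.143 CPM against 70.1 to 136 CPM. Its values have the female pattern and those of the other libraries the male pattern, though the sources used here name no sex. The ApoE-/- group thus held both patterns and the double mutant group only the male one. The X-linked Ssr4 and Magt1 are compared over this mixture. The 5 smooth muscle markers, which define the labelled tissue, were detected in each library, with summed CPM of 4172 to 26660 in the ApoE-/- libraries and of 8352 to 9464 in the double mutants. The 5 kidney tubule markers summed to at most 0.0477 CPM in the ApoE-/- libraries, where 4 of them were at 0, and to 444 to 493 CPM in the double mutants, and 5 of 5 rose at an edgeR adjusted p under 0.05. The 5 endothelial markers summed to 540 to 930 against 1082 to 1130 CPM, and the 5 plasma and B cell markers to 42.2 to 99.5 against 117 to 138 CPM. Both sums were higher without overlap of the groups, and none of the 10 genes was called in edgeR. At an unadjusted p under 0.05, Tie1, Emcn and Cd79a were higher, beside 1760 of all 19833 tested genes. Most of the plasma and B cell sum was Sdc1 (67.3 against 98.0 CPM in the mean), while Jchain overlapped between the groups and Tnfrsf17 had a log2 fold change of -0.44. Macrophage markers summed to 362 to 4594 against 4343 to 6177 CPM, adipocyte markers to 568 to 4477 against 4331 to 4671 CPM and fibroblast markers to 3458 to 5597 against 4369 to 4994 CPM, with overlap. Of these 15 genes, the adipocyte hormone Lep rose 14.9-fold, from 1.34 to 20.01 CPM in the mean (edgeR adjusted p = 0.0168), and Fabp4, Cd68 and Lum were higher without overlap but not called. The part of these cell types in the members' values was not tested. In bulk aorta, fewer cells of a type and less RNA per cell cannot be told apart. The kidney tubule markers divide the libraries exactly as genotype does. A difference in the tissue collected therefore cannot be told apart from genotype for any member value.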

How the data were processed

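The authors deposited 1 table of raw read counts per gene, a column for each sample, with no normalization (judged from whole numbers and unequal totals). Per the submitters' processing notes, the tools included cutadapt, HISAT2 and StringTie. The sources used here give neither their versions nor the genome build, the annotation, the counting program or its strandedness. Per the labels' protocols, RNA was TRIzol-extracted, captured with oligo(dT) beads, heat-fragmented and made into strand-marking libraries.

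Of 55401 IDs, 55141 matched GENCODE M21 (GRCm38), which gave symbols, positions and transcript lengths. Genes were kept by filterByExpr (minimum count 10, minimum total 15), scaled by TMM and compared with edgeR 4.0.16's quasi-likelihood test (R 4.3.3, all 6 samples, no covariate, two-sided, Benjamini-Hochberg over all 19833 genes). CPM are TMM-scaled, SE is the log2 fold change over the square root of F, and TPM used median transcript length. A length trend was removed per library by lowess (span 0.3). Copies were found with blastn 2.17.0 among annotated GENCODE M21 transcripts, so unannotated copies in the genome were not sought. Alternatives were other scalings and filters, DESeq2 1.42.0, limma 3.58.1 (voom), a replicate block, other length limits and leaving out each sample.

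Members and lists were chosen with earlier results of these data known. Named are all members, companions past the threshold and otherwise the 2 with the smallest p in each complex, up to 4 called genes or else the 2 with the smallest p of each pathway list, and the 5 most similar genes. Where 3 samples are set against 3, no permutation test of a single value can give a p below 0.1, so none was used.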

Additional observations from a re-analysis of the deposited data

How the results depend on the processing

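The counts of called genes depended strongly on tool and samples. For 226 higher and 12 lower genes in edgeR, DESeq2 gave 1235 and 462, limma-voom 386 and 23, limma-voom with sample weights 1863 and 1488, and removal of the length trend 141 and 21. With the replicate number as a block, edgeR called 0 higher and 0 lower genes (1643 and 684 at an unadjusted p under 0.05), and no companion, with Ost4 at an adjusted p of 0.184. Same-numbered samples had deviations from their group means correlated at -0.04, -0.03 and -0.01. These values show no pairing by number, but with so few samples they cannot exclude shared handling. Leaving out 1 sample gave 0 to 2651 higher and 0 to 2580 lower genes. The highest counts came without ApoE-/- 1, and without ApoE-/- 2 there were 101 and 7, without ApoE-/- 3 163 and 19. Without double mutant 1, 2 or 3 there were 0 and 0 (1254 to 1319 higher and 630 to 723 lower at an unadjusted p under 0.05). Of the companions, DESeq2 and limma-voom with weights each called 3 higher and 1 lower, and leaving out 1 sample gave 0 to 3 higher and 0 to 2 lower. Over 16 alternatives the adjusted p of Ost4 ranged from 3.5e-08 to 0.196.

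The short-minus-long difference in median log2 fold change, 0.96 for the members and 0.45 for the companions, became 0.40 and -0.004 with the length trend removed, 1.25 and 0.26 with a split by coding length, and 0.76 to 1.17 and 0.36 to 0.54 when 1 sample was left out. With the longest transcript as length it was 0.78 and 0.62, with 3 short members and 3 short companions. Sec61g, Ostc and Ssr4 then counted as long. With the length trend removed, Sec61b (-0.285), Ssr4 (-0.11) and Ostc (-0.07) changed sign. Over the 16 alternatives Sec61g stayed between 1.97 and 2.64, Tmem258 between 1.25 and 2.22, Dad1 between 0.96 and 1.29 and Spcs1 between 0.66 and 1.11. Sec61a1, Stt3a and Rpn1 stayed below 0 in all of them, at -0.41 to -0.04. The members held 391 to 12593 counts in a library, and no setting with fewer counts was run. Causes of the changes between settings were not tested.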
